A study of Homo sapiens with 6 samples.

Results

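The response to induction of miR-22 was followed in NpBI-22 cells, a derivative of the established line RD18, which comes from an embryonal rhabdomyosarcoma, a childhood tumour of muscle-like cells. NpBI-22 cells were compared in 2 groups on Affymetrix Human Gene ST arrays: 2 biological replicates given doxycycline at 1 µg/ml for 6 days (induced) and 2 replicates left without it (non-induced). All rows of the value table with a single gene symbol were taken, which were 19460 of 33297 rows and covered 18417 genes. A second derivative, NpBI-206AS, had 1 induced and 1 non-induced array, and the labels do not say what its suffix stands for. NpBI-22 without doxycycline carries the same construct as the induced cells, and no NpBI-22 array tests doxycycline apart from the construct.

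MicroRNAs are short RNAs that, bound to an Argonaute protein, pair with messenger RNAs mainly through a seed near their 5′ end and lower the stability and translation of those messengers. miR-22 is made from a transcript of the MIR22HG gene and is known from heart and skeletal muscle, where it is linked to growth and differentiation. Embryonal rhabdomyosarcoma cells express early muscle regulators such as MYOD1 but do not complete muscle differentiation.

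The mature microRNAs that bear on the results are shown as RefSeq lists them (GRCh38.p14), with the seed, bases 2 to 8, in capitals. miR-22 is the microRNA that was induced, and miR-206, miR-148b and miR-221 belong to the 3 microRNA genes whose rows fell; a seed relative is shown beside each of these 3.
miR-22-3p: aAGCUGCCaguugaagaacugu
miR-22-5p: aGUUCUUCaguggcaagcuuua
miR-206: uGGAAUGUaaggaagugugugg
miR-1-3p: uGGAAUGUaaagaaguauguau
miR-148b-3p: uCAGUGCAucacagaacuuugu
miR-148a-3p: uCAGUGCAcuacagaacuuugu
miR-221-3p: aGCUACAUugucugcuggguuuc
miR-222-3p: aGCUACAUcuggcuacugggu
The seed of miR-22-3p occurred in no other of the 2370 mature names in the RefSeq table, and neither did that of miR-22-5p. The seed of miR-206 was shared with miR-1-3p and miR-613, that of miR-148b-3p with miR-148a-3p and miR-152-3p, and that of miR-221-3p with miR-222-3p. No row carried MIR22 as its single symbol, so the induced microRNA itself was not measured here. The MIR148B row fell (log2 change -1.50, SE 0.19, limma adjusted p = 0.026), while MIR148A differed by 0.29 (adjusted p = 0.385) and MIR152 by 0.06 (adjusted p = 0.864). The MIR221 row fell (log2 change -1.45, SE 0.17, adjusted p = 0.0234), and that of MIR222 differed by 0.15 (adjusted p = 0.775). MIR206 fell (log2 change -1.52, SE 0.19, adjusted p = 0.0257), and MIR1-1 differed by 0.22 (adjusted p = 0.568). These rows read microRNA genes or their precursors, and mature microRNA levels were not measured here. Mean log2 levels in non-induced cells were 2.15 for MIR148A, 2.43 for MIR1-1, 3.57 for MIR222 and 5.46 for MIR152. MIR148A, MIR1-1 and MIR222 lay at percentiles 0.309, 1.1 and 10.4 of all genes, so a fall could hardly be seen in them. Of 173 microRNA rows, 3 fell and none rose in limma (1.73% called against 3.26% of all genes), where an unadjusted p under 0.05 held for 2 higher and 14 lower rows.

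Median log2 levels per array ran from 5.66 to 5.75, and precision is limited by the number of arrays. Array codes began with R715 for both induced arrays, R509 for non-induced replicate 1 and R587 for the remaining 3 arrays. What the prefix marks is not stated, and in the miR-22 arrays it cannot be told apart from induction. The 2 non-induced arrays differed at least 2-fold in 111 genes and the 2 induced arrays in 18. Markers were set against the array median by their mean over the non-induced miR-22 arrays only. Of 14 measured markers of rhabdomyosarcoma and muscle progenitors, 11 lay above it, and the list's mean log2 level was 7.58 to 8.09 over the 6 arrays. MYOD1 read 8.87 and 9.02 in induced and 9.22 and 9.74 in non-induced miR-22 cells. In non-induced miR-22 cells, none of 6 measured blood markers, none of 5 fat markers, 1 of 8 endothelial and 1 of 6 smooth muscle markers lay above the array median. Of the other lists, 4 of 6 bone and cartilage, 3 of 7 neural and 3 of 8 epithelial markers did, and KRT18 of epithelium read 9.93 to 10.56 on the 6 arrays. PTPRC, a marker of blood cells, read 2.66 to 3.0 on the 6 arrays. CNN1, of smooth muscle, read 6.76 and 6.55 in induced and 5.65 and 5.40 in non-induced cells, and rose by 1.13 (adjusted p = 0.0361). It thus lay above the array medians in induced cells only. No other marker of the blood, fat, endothelial, smooth muscle, bone and cartilage, neural and epithelial lists was called.

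Across the 18417 genes, 320 rose and 280 fell in induced miR-22 cells at a limma adjusted p under 0.05, which is 3.26% of the genes tested (1.74% higher and 1.52% lower). With each array centred on its median, the split was 449 higher and 229 lower. With any 1 of the 4 arrays left out no gene passed in limma, and 994 to 2505 genes were higher and 785 to 1871 lower at an unadjusted p under 0.05, against 2224 and 1678 with every array. Over all rows, 1200 of 33297 (3.6%) passed. The median change of all genes was 0.01 on the log2 scale, and for 52.4% of genes the induced arrays did not overlap the non-induced ones. Changes were at least 2-fold for 254 of the higher and 215 of the lower genes, and at least 4-fold for 25 and 14. The median change of the genes called was 1.23 upward and -1.17 downward, and the smallest was 0.81 in either direction. Among the genes with the smallest called changes were COX6B1, a subunit of cytochrome oxidase (0.81), the zinc-finger gene ZNF416 (0.84) and the phosphatase gene PTPRG (0.84), and downward ARMC9 (-0.81), INTS10 (-0.82) and MERTK (-0.83). For 15062 genes (81.8%) the 95% interval of the change lay within 2-fold in either direction. A further 2755 genes were not called but had an interval that reached 2-fold.

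The genes called covered the whole range of levels, as the plot of level against change shows. With the genes split into 4 equal bins by mean level, 0.499% were called in the lowest bin (log2 1.73 to 4.7) and 2.63%, 5.04% and 4.87% in the higher bins. The deposited table holds no detection calls, so values in the lowest bin are not shown to be above background. At the upper end PLCG2, a phospholipase C that acts below receptor tyrosine kinases, read 12.49 and 12.48 in induced and 11.51 and 11.44 in non-induced cells, and it rose by 1.01 (SE 0.15, adjusted p = 0.0326). The tubulin gene TUBA1A rose by 1.33 and GLUL, glutamine synthetase, by 0.93 (adjusted p = 0.027 and 0.0371). CANX, a chaperone of the endoplasmic reticulum, read 11.06 and 11.20 in induced against 11.99 and 12.07 in non-induced cells, and it fell by 0.89 (SE 0.15, adjusted p = 0.0442). Both genes had induced arrays apart from every other array of the series.

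**Figure D1:**
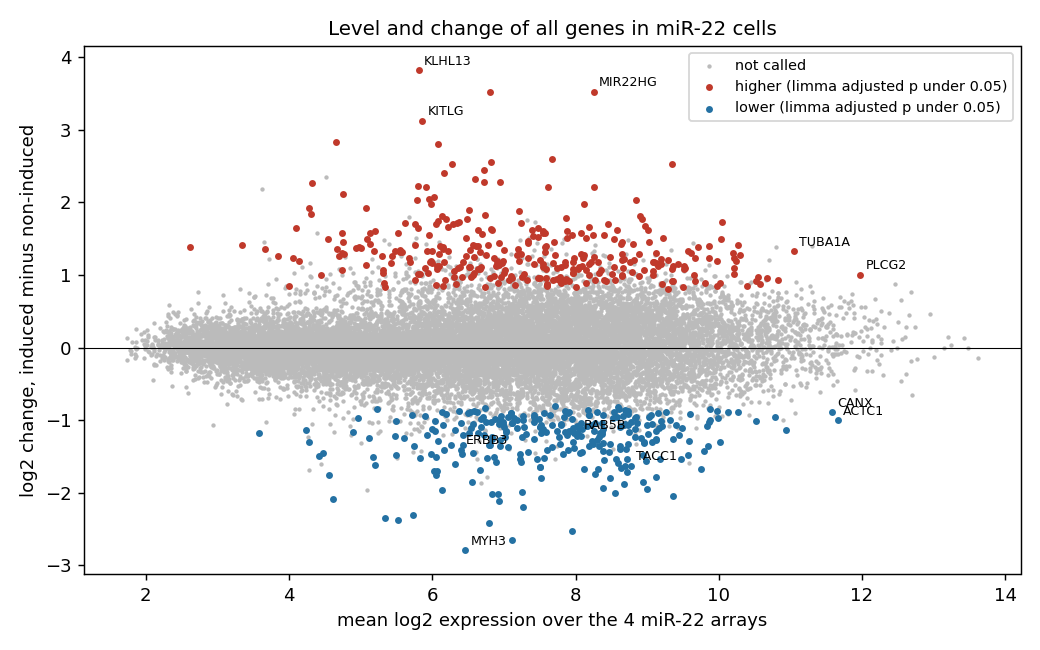
Mean log2 expression over the 4 miR-22 arrays (x axis) and log2 change, induced minus non-induced (y axis), for 18417 genes, 1 point each; red and blue points are the 320 higher and 280 lower genes in limma, grey points were not called. The coloured points spread over the x axis up to PLCG2 and ACTC1, and are scarce at the left end.

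The host gene and 3 named targets were set beside their closest relatives. MIR22HG, the host transcript of miR-22, read 10.02 and 10.01 in induced cells, 6.27 and 6.72 in non-induced cells and 6.41 and 6.32 in NpBI-206AS cells, and rose by 3.53 (SE 0.20, adjusted p = 0.014). Signal from the construct and from the gene itself cannot be told apart, as the sequences of probes and construct were not used here. TACC1, a protein of the centrosome and spindle, read 7.94 and 7.97 in induced and 9.54 and 9.62 in non-induced cells, and both NpBI-206AS arrays were close to the latter (9.62 and 9.59). It fell by 1.63 (SE 0.15, adjusted p = 0.0183). Of its relatives, TACC3 differed by -0.76 (adjusted p = 0.0659) and TACC2 by -0.09 (adjusted p = 0.863).

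RAB5B, a GTPase of early endosomes, read 7.55 and 7.33 in induced, 8.68 and 8.59 in non-induced and 8.78 and 9.12 in NpBI-206AS cells, with no overlap, and fell by 1.19 (SE 0.16, adjusted p = 0.0282). RAB5A, which shares the function in early endosomes, differed by 0.11 (adjusted p = 0.769) and RAB5C by 0.53 (adjusted p = 0.128). ERBB3, a neuregulin receptor related to EGFR, read 5.69 and 5.70 in induced, 7.10 and 7.10 in non-induced and 6.47 and 6.72 in NpBI-206AS cells. It fell by 1.41 (SE 0.14, adjusted p = 0.0202), and the NpBI-206AS arrays lay between the groups. EGFR differed by -0.07, ERBB2 by 0.51 and ERBB4 by 0.14 (adjusted p = 0.859, 0.158 and 0.69). Whether ERBB3 changed more than its relatives was not tested.

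**Figure D2:**
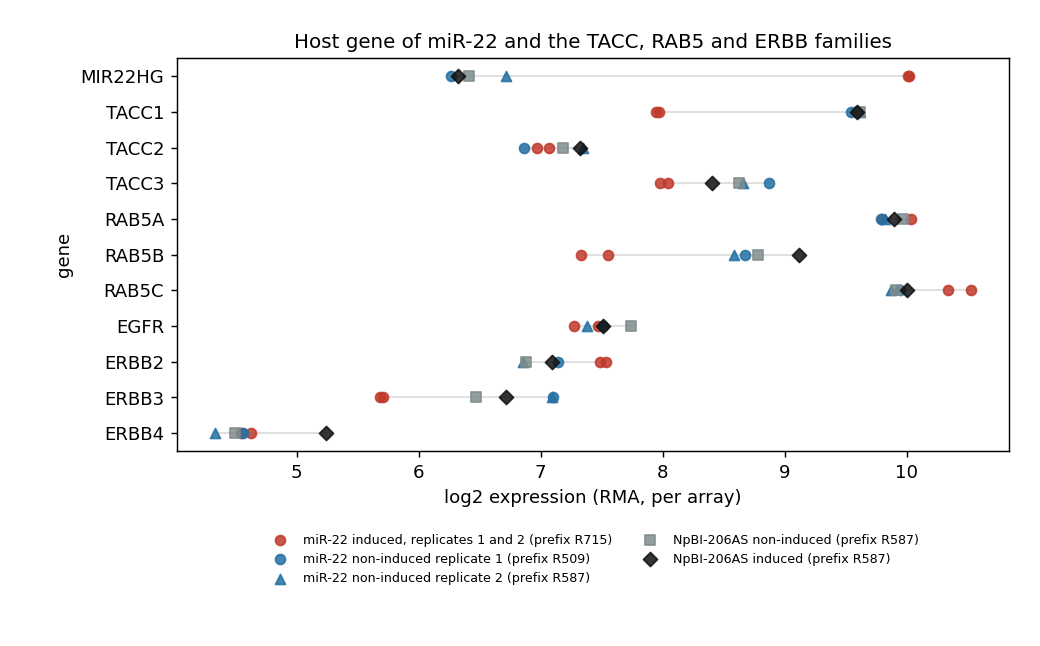
Log2 expression (x axis) of 11 genes (y axis) on each of the 6 arrays; red points are induced miR-22 cells, blue points non-induced miR-22 cells, grey squares and black diamonds NpBI-206AS cells. The red points of MIR22HG stand to the right of all others at 10.02 and 10.01, those of TACC1, RAB5B and ERBB3 to the left of all others, while EGFR and RAB5A overlap between groups.

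A list of published miR-22 targets had 39 measured members. None rose and 5 fell in limma: TACC1, NCOA1, ERBB3, RAB5B and WRNIP1. That is 12.8% of the list, against 3.26% of all genes, and the list's median change was -0.20, against 0.01 for all genes. The list was drawn up with results of these data known, and TACC1, ERBB3 and RAB5B are tied to this study, so the count is no independent evidence of direction. NCOA1, a coactivator of nuclear receptors, read 7.63 and 7.87 in induced and 9.21 and 9.17 in non-induced cells, and fell by 1.44 (SE 0.16, adjusted p = 0.0226). WRNIP1, a protein of stalled replication forks, fell by 1.04 (adjusted p = 0.0481). Several well-known targets were not called: SIRT1 differed by -0.33, SP1 by -0.07, MAX by -0.09, HDAC4 by -0.20, CDK6 by 0.04 and TET2 by -0.20 (adjusted p between 0.323 and 0.922). Among the 15 measured genes of microRNA processing none was called, (unadjusted p under 0.05 for 2 upward and 2 downward), and LIN28B and DGCR8 had the largest differences (0.81 and -0.61, adjusted p = 0.074 and 0.19).

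Secreted ligands changed in both directions. KITLG, the ligand of the KIT receptor, read 7.26 and 7.59 in induced and 4.29 and 4.31 in non-induced cells, with 4.96 and 4.69 in NpBI-206AS cells. It rose by 3.13 (SE 0.17, adjusted p = 0.014), and its receptor gene KIT read 2.92 to 3.22 on the 6 arrays and differed by -0.11 (adjusted p = 0.776). TGFB2, a ligand of the transforming growth factor beta family, read 6.62 and 6.99 in induced against 4.81 and 4.73 in non-induced cells and rose by 2.04 (SE 0.18, adjusted p = 0.0183). The other arrays of the series lay between 4.16 and 4.81. LTBP1, which holds latent transforming growth factor beta in the matrix, fell by 1.93 and its relative LTBP2 by 1.15 (adjusted p = 0.0183 and 0.0326). The co-receptor gene TGFBR3 rose by 1.02 (adjusted p = 0.0356). LTBP1 read 7.38 and 7.47 in induced and 9.20 and 9.50 in non-induced cells, and 9.65 and 9.44 in NpBI-206AS cells.

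HBEGF, a ligand of EGFR, read 8.20 and 8.48 in induced and 6.50 and 6.98 in non-induced cells and rose by 1.60 (SE 0.22, adjusted p = 0.0286). PDGFD, a platelet-derived growth factor, rose by 1.45 (adjusted p = 0.022), and VEGFC, a growth factor of lymphatic vessels, fell by 0.93 (adjusted p = 0.049). JAG1, a Notch ligand, rose by 0.91, LGR4, a receptor for R-spondins that enhances WNT signalling, by 1.60 and CCN2, a secreted matrix protein, by 1.42 (adjusted p = 0.0475, 0.0232 and 0.0217). AXL and MERTK, 2 receptor tyrosine kinases that bind GAS6, fell by 0.93 and 0.83 (adjusted p = 0.0401 and 0.0486). None of the 27 measured fibroblast growth factors and receptors and none of the 21 ephrins and EPH receptors was called in limma (unadjusted p under 0.05 for 1 and 6 upward, 2 and 0 downward).

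Of 56 measured chemokines and chemokine receptors 1 rose and 2 fell, 5.36% against 3.26% of all genes. CXCR4, the receptor for CXCL12, read 7.22 and 6.73 in induced, 4.70 and 5.17 in non-induced and 4.35 and 4.44 in NpBI-206AS cells, and rose by 2.04 (SE 0.25, adjusted p = 0.0253). The neutrophil chemokine genes CXCL1 and CXCL2 fell by 0.91 and 1.41 (adjusted p = 0.0452 and 0.022). Both also differed within the second line: CXCL1 read 8.23 and CXCL2 7.57 in non-induced NpBI-206AS cells, and 6.81 and 5.97 in induced ones. IL1RAP, a shared chain of interleukin receptors, rose by 1.89 (SE 0.24, adjusted p = 0.0259), and IL7R fell by 1.70 (SE 0.21, adjusted p = 0.0253) with 5.22 and 5.20 in induced and 7.17 and 6.66 in non-induced cells. IL7R read 6.61 in non-induced and 4.85 in induced NpBI-206AS cells, so the induced array of that line lay below both induced miR-22 arrays. With the 3 arrays of prefix R587 as the controls instead, where 11.8% of all genes were called higher and 10.2% lower, IL7R, CXCL1 and CXCL2 were not called: IL7R differed by -0.83 (adjusted p = 0.304), CXCL1 by -0.87 (adjusted p = 0.14) and CXCL2 by -1.38 (adjusted p = 0.0552). NRP2, a receptor for semaphorins and VEGF ligands, fell by 1.60 (adjusted p = 0.0191), and NT5E, which converts AMP outside the cell to adenosine, by 2.52 (adjusted p = 0.0145).

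**Figure D3:**
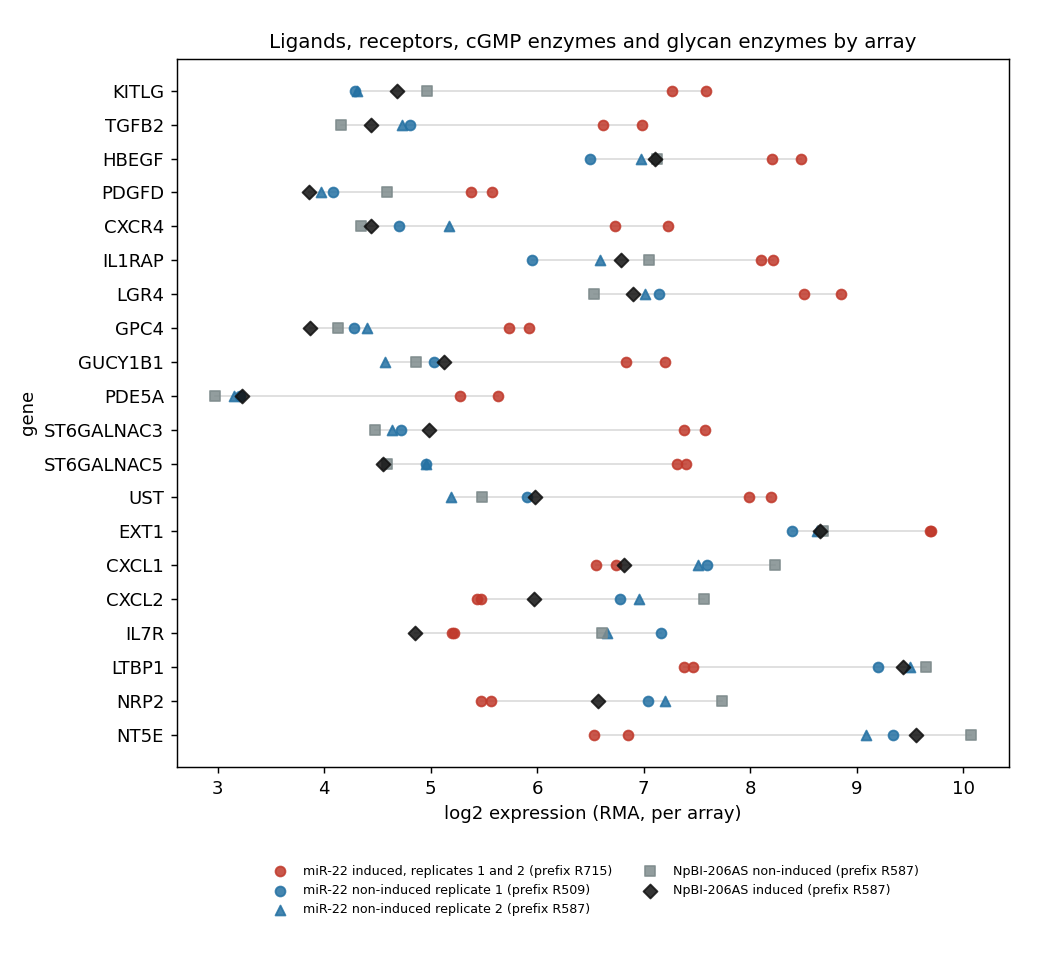
Log2 expression (x axis) of 20 genes of ligands, receptors, cyclic nucleotide enzymes and glycan enzymes (y axis) on each of the 6 arrays; red points are induced miR-22 cells, blue points non-induced miR-22 cells, grey squares and black diamonds NpBI-206AS cells. Red points of KITLG, CXCR4, PDE5A and ST6GALNAC3 stand clear of the other 4 arrays, while induced NpBI-206AS cells lie near or beyond the red points of CXCL1 and IL7R.

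In cyclic GMP signalling a soluble guanylyl cyclase makes the messenger and phosphodiesterases remove it. Of 17 adenylyl and guanylyl cyclases 1 rose and of 23 phosphodiesterases 2 rose (5.88% and 8.7% called against 3.26% of all genes), with medians of -0.03 and 0.02. GUCY1B1, the beta subunit of soluble guanylyl cyclase, read 7.20 and 6.83 in induced and 5.03 and 4.57 in non-induced cells and rose by 2.22 (SE 0.23, adjusted p = 0.0201). GUCY1A1, the partner alpha subunit, read 2.87 to 3.20 on the 6 arrays and differed by 0.16 (adjusted p = 0.609). PDE5A, which hydrolyses cyclic GMP, read 5.27 and 5.63 in induced and 3.21 and 3.16 in non-induced cells and rose by 2.27 (SE 0.18, adjusted p = 0.0155). PRKG1, the kinase that cyclic GMP activates, differed by 0.83 (adjusted p = 0.0593). PDE4B, specific for cyclic AMP, rose by 1.35 (adjusted p = 0.0217), and the kinase anchors AKAP3 and AKAP6 rose by 1.66 and 1.34 (adjusted p = 0.0183 and 0.0499). RGS7 and RGS4, which speed the shut-off of G proteins, rose by 1.49 and 1.26 (adjusted p = 0.023 and 0.038). Of 21 measured members of that family 2 rose and none fell, against 1.74% of all genes higher and 1.52% lower. Below 0 lay 5 members, 1 of them at an unadjusted p under 0.05 in limma. PLCB3 and PLCB4, phospholipases C that G proteins activate, fell by 1.00 and 1.37 (adjusted p = 0.0476 and 0.0416), whereas PLCG2 rose.

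Enzymes that build cell-surface glycans held several of the larger rises. Of 20 measured sialyltransferases, which add sialic acid to glycan chains, 3 rose and 1 fell (20% against 3.26% of all genes), with a family median of -0.01 (0.01 to 0.06 under other scalings). ST6GALNAC5 read 7.32 and 7.40 in induced, 4.95 and 4.96 in non-induced and 4.59 and 4.55 in NpBI-206AS cells, and rose by 2.40 (SE 0.15, adjusted p = 0.0145). ST6GALNAC3 rose by 2.80 and ST6GAL1 by 0.97 (adjusted p = 0.014 and 0.0411), and ST3GAL5, the enzyme that makes the ganglioside GM3, fell by 1.09 (adjusted p = 0.0304). Among 46 heparan and chondroitin sulfate enzymes 4 rose and 1 fell (10.9% against 3.26% of all genes, median 0.04). UST, which sulfates uronic acids of chondroitin and dermatan sulfate, read 8.20 and 7.99 in induced and 5.90 and 5.19 in non-induced cells and rose by 2.55 (SE 0.26, adjusted p = 0.0205). EXT1, the heparan sulfate polymerase, rose by 1.18, GLCE by 0.92 and CHSY3 by 0.84, and HS3ST3B1 fell by 1.06 (adjusted p = 0.0283, 0.0402, 0.0451 and 0.0337). GPC4, a membrane proteoglycan that carries heparan sulfate, rose by 1.49 (adjusted p = 0.0213).

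Adhesion and matrix families also held called genes. Of 42 measured protocadherins 3 rose and none fell (7.14% called against 3.26% of all genes): PCDH18 by 1.43, PCDHB11 by 0.91 and PCDHB2 by 0.89 (adjusted p = 0.0253, 0.0426 and 0.0461). The PCDHB genes resemble each other closely, and their rows were not checked for shared probes. Integrin genes ITGA9 and ITGA4, both of which encode receptors for fibronectin and VCAM1, fell by 1.21 and 1.08 (adjusted p = 0.0257 and 0.0442), with a median of -0.18 over 29 integrins. The neural adhesion gene NRCAM fell by 1.24 (adjusted p = 0.036). LAMC1, the gamma chain of many laminins, fell by 0.96, and the collagen crosslinking enzymes LOX and LOXL4 by 1.11 and 1.86 (adjusted p = 0.0366, 0.034 and 0.0194). None of 43 collagens was called in limma (unadjusted p under 0.05 for 1 upward and 2 downward), and the family median was -0.01 (-0.01 to 0.06 under other scalings). TIMP3, an inhibitor of matrix proteases, rose by 1.32 (adjusted p = 0.0253).

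Single regulators of small GTPases and single kinases were also called. DOCK10, an exchange factor for CDC42 and RAC, read 7.85 and 8.19 in induced, 9.87 and 10.07 in non-induced and 9.93 and 9.90 in NpBI-206AS cells. It fell by 1.95 (SE 0.19, adjusted p = 0.0191), and its induced arrays lay below every other array. The near-identical genes ARHGAP11A and ARHGAP11B fell by 1.05 and 1.44, and their signals may be shared. PRKCQ, protein kinase C theta, rose by 1.72, PIK3CB, a catalytic subunit of phosphoinositide 3-kinase, by 1.23 and its regulatory subunit PIK3R3 by 1.10 (adjusted p = 0.0253, 0.0361 and 0.0366). MAP2K5 rose by 1.20, and MAPK9, also known as JNK2, fell by 1.12 (adjusted p = 0.0251 and 0.0291). KLHL13 and KLHL4, substrate adaptors of CUL3 ubiquitin ligases, rose by 3.82 and 2.53 (adjusted p = 0.014 and 0.032), and KLHL9, a partner of KLHL13 in mitosis, differed by 0.42 (adjusted p = 0.195).

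Called shares of transcription factor families lay on both sides of the 3.26% of all genes. The share was 9.52% of 21 AP-1 and early response factors, and 8.0% of 25 Kruppel-like and SP factors. Of 25 CCAAT, CREB and ATF factors 8.0% were called, and 5.71% of 35 IRX, MEIS and related homeobox genes. For 19 SOX factors and 38 nuclear receptors it was 5.26% each. None of 39 forkhead, 24 ETS and 13 STAT and IRF factors was called in limma (unadjusted p under 0.05 for 2, 2 and 1 upward, 3, 3 and 2 downward). SOX4, a factor of progenitor cells, read 8.98 and 9.04 in induced and 7.60 and 7.11 in non-induced cells and rose by 1.66 (SE 0.21, adjusted p = 0.0253). KLF7 and KLF6 rose by 1.25 and 0.96, the early response genes IER2 and FOS by 0.99 and 0.97, and RORA by 1.31 (adjusted p between 0.0355 and 0.0414). The homeobox genes IRX3 and MEIS2 fell by 1.15 and 1.04, TEAD4, a partner of YAP, by 0.98 and the retinoic acid receptor RARG by 0.89 (adjusted p = 0.0286, 0.0326, 0.0486 and 0.0461). Of 497 measured ZNF genes 6 rose and 3 fell, which is 1.81% against 3.26% of all genes. None of 27 HOX genes was called (unadjusted p under 0.05 for 3 upward and 3 downward), nor any of 40 T-box, GATA and PAX factors and relatives (1 higher and none lower) or of 21 muscle regulators (3 higher and 2 lower).

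Among families of myosins and other contractile genes, 4 of 14 myosin heavy chains, 2 of 16 light chains, 1 of 7 troponins and 2 of 10 tropomyosins and tropomodulins fell and none rose, against 1.52% of all genes lower. The 4 heavy chains were MYH3 and MYH8 of muscle and the non-muscle MYH10 and MYH9. The family medians were -0.28, 0.04, -0.40 and -0.28, so the light chains as a family lay near 0. MYH3, the embryonic myosin heavy chain, read 5.26 and 4.86 in induced and 8.02 and 7.69 in non-induced cells, with 6.40 and 5.95 in NpBI-206AS cells between them, and fell by 2.79 (SE 0.21, adjusted p = 0.0145). Against the 3 arrays of prefix R587 the MYH3 change was -1.62 (adjusted p = 0.0492), and with all 4 other arrays as controls it was -1.95 and not called (adjusted p = 0.0591). TTN, the giant spring protein of the sarcomere, read 5.76 and 6.06 in induced and 7.56 and 8.28 in non-induced cells and fell by 2.02 (SE 0.27, adjusted p = 0.0284). NEB, of the thin filament, fell by 2.00, and CKM, the muscle creatine kinase, by 1.96 (adjusted p = 0.048 and 0.019). In these cultures, fewer cells of a type and less RNA per cell cannot be told apart.

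Of 53 genes of calcium channels and handling 3 were called, all lower (5.66% against 3.26% of all genes called, median -0.07): CASQ2, a calcium buffer of the sarcoplasmic reticulum, by 1.62, RYR1, its calcium release channel, by 1.53 and ATP2A1, its fast-fibre calcium pump, by 1.52 (adjusted p = 0.0365, 0.0253 and 0.0322). ATP2A2, the pump of slow muscle and other cells, differed by -0.16 (adjusted p = 0.625). CHRNG, the fetal subunit of the muscle acetylcholine receptor, read 7.08 and 7.16 in induced, 8.31 and 8.59 in non-induced and 7.95 and 8.59 in NpBI-206AS cells, and fell by 1.33 (SE 0.17, adjusted p = 0.0257). CHRNA1 and CHRND, other subunits of that receptor, differed by -0.21 and -1.08 (adjusted p = 0.532 and 0.116). The non-muscle genes MYH10 and MYH9, already counted among the heavy chains above, fell by 1.85 and 0.92 (adjusted p = 0.0189 and 0.0444).

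Part of this difference lay between the control lines. MYL1, a fast light chain, read 8.93 and 8.76 in induced and 10.09 and 10.02 in non-induced miR-22 cells. NpBI-206AS cells read 8.51 and 8.55 for MYL1, so both arrays of the second line lay below the induced ones. The fall of MYL1 by 1.21 (adjusted p = 0.026) was -0.18 (adjusted p = 0.806) when the induced arrays were set against the 3 arrays of prefix R587 instead; this comparison, in which 11.8% of all genes were called higher and 10.2% lower, shares the induced arrays and non-induced replicate 2 with the main one. MYL11 (-0.49, adjusted p = 0.548), ACTC1 (-0.40, adjusted p = 0.374), CKM (-0.97, adjusted p = 0.219), TTN (-1.05, adjusted p = 0.256), MYBPH (-1.14, adjusted p = 0.124), MYH8 (-1.01, adjusted p = 0.131) and CASQ2 (-0.55, adjusted p = 0.28) were likewise not called against those 3 arrays. ATP2A1, RYR1, CHRNG, MYH10, MYH9 and TPM2 were called in both comparisons, with adjusted p between 0.000443 and 0.00888 in the second.

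**Figure D4:**
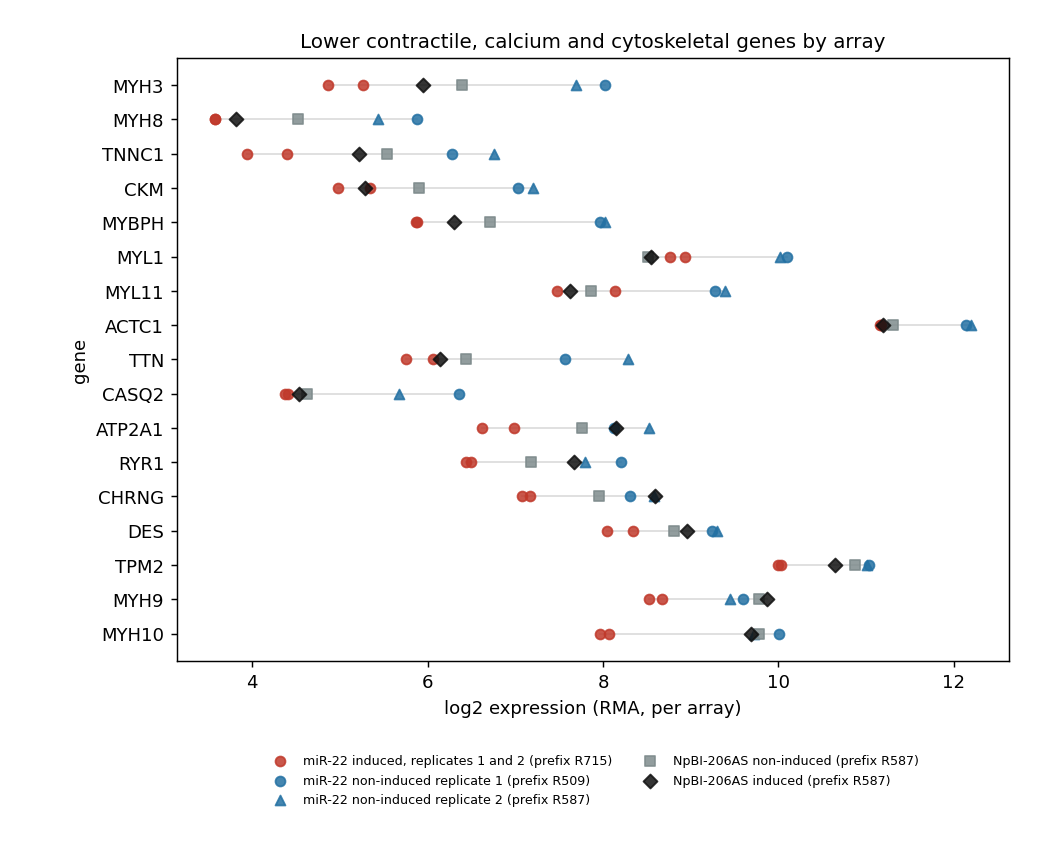
Log2 expression (x axis) of 17 contractile, calcium-handling and cytoskeletal genes that fell (y axis) on each of the 6 arrays; red points are induced miR-22 cells, blue points non-induced miR-22 cells, grey squares and black diamonds NpBI-206AS cells. For MYL1 and MYL11 the NpBI-206AS points lie at or below the red points or between them, whereas for MYH10, MYH9 and CHRNG they lie on the side of the blue points.

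The bases before the start of CKM, a gene whose enhancers and promoter are a classical example of muscle regulation, are shown with CAGCTG, a form of the E box that MYOD1 binds, and CCAAT, also searched on the other strand, in capitals (GRCh38.p14, chr19:45322876-45323125, minus strand, RefSeq).
CKM: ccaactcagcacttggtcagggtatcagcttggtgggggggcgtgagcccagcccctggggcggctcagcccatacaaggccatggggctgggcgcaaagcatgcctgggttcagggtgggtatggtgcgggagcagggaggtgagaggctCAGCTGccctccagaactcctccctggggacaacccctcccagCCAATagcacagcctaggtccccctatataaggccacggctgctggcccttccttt
CAGCTG began at base -99 and CCAAT at base -56 from the start. Over windows of 250 bases before and 50 after the start, CAGCTG was found in 17.7% of 14239 genes with a RefSeq promoter, in 18.6% of 215 lower genes, and in 3 of 11 lower contractile and calcium genes (ATP2A1, CKM and TPM2). These 11 include the non-muscle MYH9 and MYH10. A match describes letters and is not a bound site.

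Some genes of chromosome segregation and replication fell, and none of those listed was called higher. Of 42 centromere and kinetochore genes 6 fell (14.3%, median -0.38), of 41 kinesins 4 (9.76%, median -0.27) and of 41 replication genes 4 (9.76%, median -0.20), against 1.52% of all genes lower. Most members were not called, and 12 of the 41 replication genes lay above 0. CENPE, a kinetochore motor, read 5.30 and 5.87 in induced, 7.68 and 8.32 in non-induced and 8.48 and 8.43 in NpBI-206AS cells, and fell by 2.42 (SE 0.29, adjusted p = 0.0251). KIF15, a spindle motor, read 6.60 and 6.78 in induced and 8.20 and 8.25 in non-induced cells and fell by 1.54 (SE 0.16, adjusted p = 0.0194). KIF14, a motor of cell division, fell by 1.40 and KIF2C, which takes microtubules apart at the kinetochore, by 0.89 (adjusted p = 0.036 and 0.0465). CCNA2, cyclin A2, fell by 1.01, CDC25B, a phosphatase that activates cyclin-dependent kinases, by 1.41 and XRCC2, of recombination repair, by 1.79 (adjusted p = 0.0355, 0.0288 and 0.0155). In the cohesin and condensin family SMC3 fell by 0.98 (adjusted p = 0.0441), and the median of its 23 members was -0.43. Between the single arrays of the second line, induced minus non-induced, the medians were -0.30 for kinetochore, -0.34 for replication and -0.04 for kinesin genes.

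Among 23 small nuclear and RNA polymerase III genes 9 rose and 1 fell (43.5% called against 3.26% of all genes, median 1.09). RNU4ATAC, a small nuclear RNA of the minor spliceosome, read 7.05 and 6.76 in induced, 4.58 and 4.79 in non-induced and 4.83 and 4.53 in NpBI-206AS cells, and rose by 2.22 (SE 0.18, adjusted p = 0.0155). RPPH1, the RNA of ribonuclease P, rose by 2.54 (adjusted p = 0.0205). SCARNA10, a Cajal body RNA, rose by 2.27 and SNORD13, which takes part in modification of ribosomal RNA, by 2.04 (adjusted p = 0.0145 and 0.0194). SNORD52 fell by 1.43 and SNORA74A by 1.23 (adjusted p = 0.0236 and 0.0326), and small nucleolar and Cajal body RNAs together had 8 rises and 7 falls among 192 (7.81% called, median -0.03). Many of these genes have near-identical copies, and probe sequences were not used here.

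Of 57 measured replication-dependent histone genes 12 rose and none fell (median 0.70), which is 21.1% against 3.26% of all genes. Their rows were not checked for shared probes, so the 12 calls may not be separate. H4C4 read 9.27 and 8.94 in induced, 7.19 and 7.06 in non-induced and 7.35 and 6.91 in NpBI-206AS cells, and rose by 1.98 (SE 0.18, adjusted p = 0.0183). In the second line the histone median was -0.25, opposite to that in miR-22 cells. The bases before the start of H2BC3, a histone H2B gene that rose by 1.44 (SE 0.22, adjusted p = 0.036), are shown with CCAAT and TATAAA, searched on both strands, in capitals (GRCh38.p14, chr6:26043714-26043963, minus strand, RefSeq).
H2BC3: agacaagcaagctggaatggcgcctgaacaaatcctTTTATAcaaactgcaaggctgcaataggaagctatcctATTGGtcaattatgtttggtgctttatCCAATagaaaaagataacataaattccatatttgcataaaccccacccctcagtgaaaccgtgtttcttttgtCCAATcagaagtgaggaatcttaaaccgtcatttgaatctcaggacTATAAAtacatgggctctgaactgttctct
TATAAA began at bases -214 and -30 and CCAAT at bases -176, -149 and -76. In windows of 250 bases before and 50 after the start, TATAAA was found in 7 of the 12 higher histones and in 9.0% of 14239 genes, and CCAAT in 8 of the 12 and in 36.3%. Among all 247 higher genes with a promoter the shares were 13.4% and 36%. The motifs were not counted in the histone genes that were not called, so these counts do not set apart those that rose.

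Several large families leaned one way with few members called. Cytoplasmic ribosomal protein genes had a median of 0.41, with 64 of 71 above 0. Of them 4 were called (5.63% against 3.26% of all genes), RPL28 (0.96), RPL32 (0.88), RPS19 (0.88) and RPL31 (0.84). Mitochondrial ribosomal protein genes had a median of 0.33 and the respiratory chain 0.31 (2.78% and 2.63% called), each with 1 called rise (MRPS33 by 1.58, COX6B1 by 0.81) and 1 called fall (MRPS25 by 1.09, ATP5MC1 by 0.91). ESCRT genes, which sort membrane proteins into multivesicular endosomes, had a median of 0.48 and 20 of 23 members above 0, and none was called (unadjusted p under 0.05 for 13 upward and none downward). Against the 3 arrays of prefix R587 the medians were 0.29, 0.23, 0.25 and 0.36. The non-induced replicates differed too: replicate 1 minus replicate 2 had medians of -0.16, -0.17, -0.13 and -0.14 for these 4 families in the same order. The part of that difference in the result was not tested.

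Enzymes of several metabolic pathways were called. OGDH, a citric acid cycle enzyme, read 8.0 and 7.62 in induced and 9.22 and 9.72 in non-induced cells and fell by 1.66 (SE 0.24, adjusted p = 0.0319). In fatty acid synthesis ELOVL6, an elongase, fell by 1.99, FADS3 by 1.03 and ACLY, which makes cytosolic acetyl-CoA, by 1.00 (adjusted p = 0.0224, 0.0462 and 0.039). In fatty acid oxidation CPT1A and ACADVL fell by 1.36 and 1.15, and CPT2 rose by 0.96 (adjusted p = 0.0224, 0.0347 and 0.0384). CPT1A also read 7.27 in non-induced and 5.96 in induced NpBI-206AS cells. Cholesterol synthesis genes had a median of 0.54, with 17 of 19 above 0 and 3 called higher (15.8% against 1.74% of all genes), and the median was also 0.54 between the single NpBI-206AS arrays. DHCR7, a late enzyme of that pathway, read 10.63 and 10.51 in induced, 8.84 and 9.49 in non-induced miR-22 cells. In NpBI-206AS cells it read 9.20 without doxycycline and 10.23 with it. In miR-22 cells it rose by 1.40 (SE 0.25, adjusted p = 0.047), and against the 3 arrays of prefix R587 it differed by 0.93 (adjusted p = 0.0574).

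Membrane traffic and channels gave further single genes. The SNARE genes VAMP1, STX3 and STX4, which fuse vesicles with their targets, fell by 1.11, 1.03 and 0.98 (adjusted p = 0.0326, 0.0421 and 0.0384), while the family of 36 had a median of 0.27. AP1S1, a clathrin adaptor subunit, rose by 1.81 (adjusted p = 0.0183). Of 87 potassium channel genes 2 rose (KCNJ6 by 1.57 and KCNMB4 by 1.54) and 2 fell (KCNN3 by 1.69 and KCNG3 by 0.95), 4.6% called against 3.26% of all genes. Among 12 sodium channel genes SCN7A rose by 1.77 and SCN3B by 0.94 (16.7% called). INA, a neuronal intermediate filament, read 8.65 and 8.80 in induced and 6.35 and 6.67 in non-induced cells and rose by 2.22 (SE 0.18, adjusted p = 0.0155), and SYT1, a calcium sensor of synaptic vesicles, rose by 1.81 (adjusted p = 0.0322). Of 18 measured genes of the neuronal cytoskeleton, INA rose and MAP1B fell (11.1% called against 3.26% of all genes). MAP1B read 8.05 and 8.33 in induced and 9.85 and 9.68 in non-induced cells and fell by 1.57 (SE 0.17, adjusted p = 0.0224). None of 7 measured neural marker genes was called, and NEFL differed by 0.84 (adjusted p = 0.234). The mean log2 level of these 7 markers was 5.63 on both induced and 5.48 and 5.31 on the non-induced arrays, and their part in the result was not tested.

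**Figure D5:**
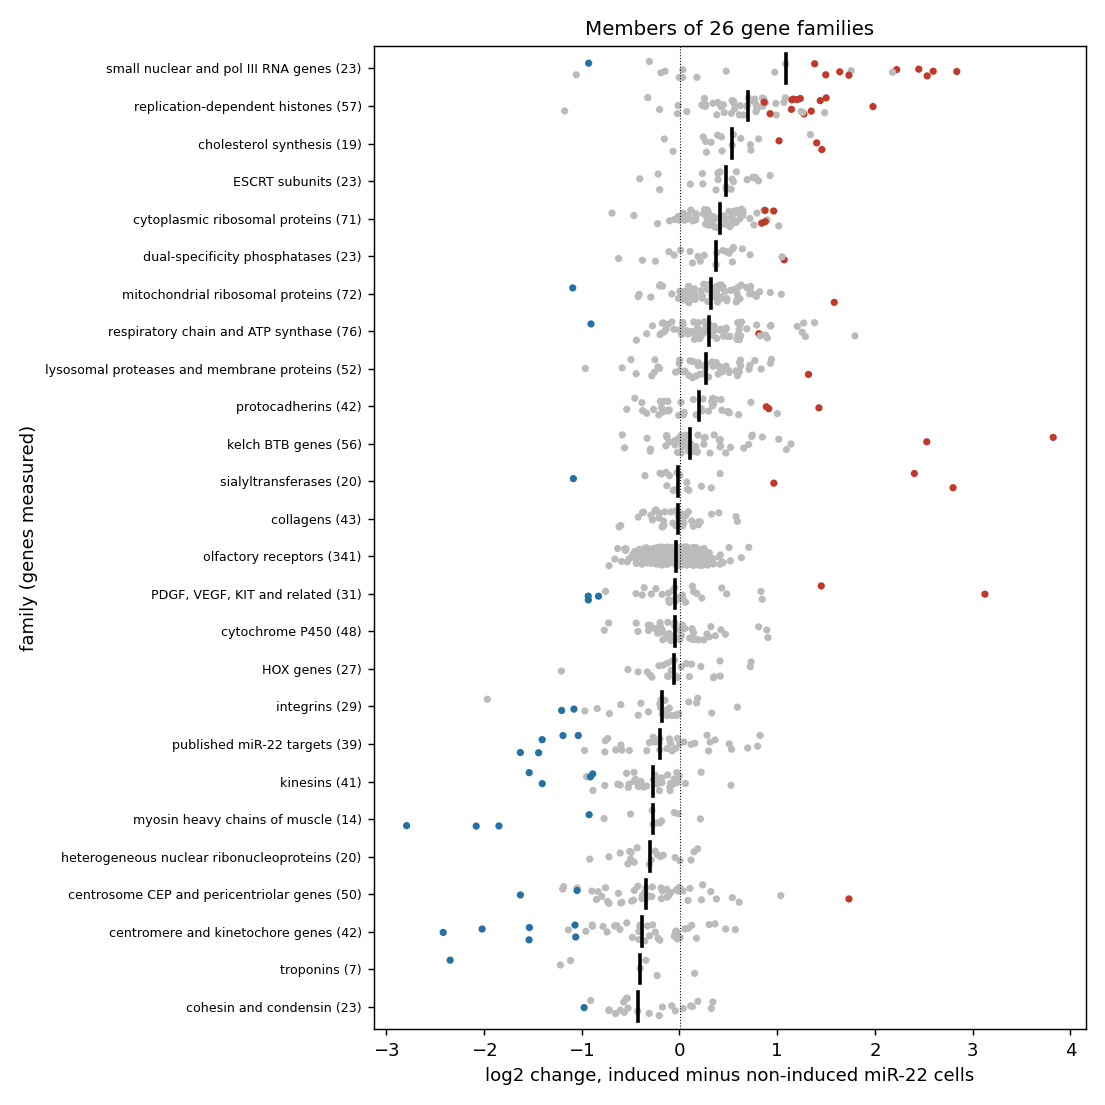
Log2 change of each member (x axis, 1 point a gene) in 26 gene families (y axis, number measured in brackets); red points rose and blue points fell in limma, grey points were not called, black bars are family medians and the dotted line is the median of all genes. Small nuclear RNA and histone families lie to the right with medians of 1.09 and 0.70, cohesin and kinetochore families to the left with -0.43 and -0.38, and olfactory receptors centre near 0.

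Of the 168 families and marker lists examined, which overlap in part, 48 had no called member, 42 had called members higher and none lower, 44 lower and none higher, and 34 had both. Several families of genes used in other tissues gave no calls in limma: 341 olfactory receptors (unadjusted p under 0.05 for 3 upward and 12 downward), 85 keratin-associated and late cornified envelope genes (2 and 5), 27 taste receptors (none and 1) and 24 beta-defensins (none in either direction). Of 66 cancer-testis antigens 1 was called (1.52% against 3.26% of all genes), the germ-cell gene TEX15, which fell by 2.66 (adjusted p = 0.0183). Cytochrome P450 genes (48), TRIM genes (55), ubiquitin-specific proteases (49), ABC transporters (43), claudins (23) and TRP channels (24) also had no call, with 5, 8, 5, 2, none and 1 upward and 2, 7, 5, 6, 1 and 3 downward at that unadjusted p.

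The 2 NpBI-206AS arrays did not enter the fit and were read beside the genes called. Of the 320 higher genes, 171 were also higher in the induced NpBI-206AS array than in the non-induced one, with a median difference of 0.01, and 2 by at least 2-fold (DHCR7 and MOXD1). Of the 280 lower genes, 185 were lower there, with a median of -0.11, and 5 by at least 2-fold (CPT1A, CXCL1, CXCL2, IL7R and NRP2). For all genes, 50.7% were higher in the induced array, the median was 0.003, and 20 genes (0.109%) were at least 2-fold apart. No gene called in miR-22 cells moved at least 2-fold the opposite way. Both induced miR-22 arrays lay beyond all 4 other arrays for each of the 320 higher genes and for 275 of the 280 lower genes, as they did for 39.4% of all genes; the exceptions were CKM, IL7R, MYL1, MYL11 and MYOM1. When the single difference of the second line was subtracted in a model over 6 arrays, added after seeing the data, no row passed the adjusted threshold in limma, and 1475 genes had an unadjusted p under 0.05. That difference rests on 1 array in each condition of the second line.

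Some genes called in the same direction lay next to each other in the RefSeq gene order of GRCh38.p14. Among 18389 genes that could be ordered, 18 neighbouring pairs were both higher and 6 were both lower. The higher pairs included ST6GALNAC3 and ST6GALNAC5, GAS2 and SVIP, NBEA and MAB21L1, PPM1L and B3GALNT1, CCN2 and MOXD1, and 4 pairs of histone genes. The lower pairs included NDEL1 and MYH10, SPCS3 and VEGFC, and ANAPC1 and MERTK. MAB21L1, a developmental gene, rose by 2.32 and GAS2, a protein that links actin and microtubules, by 2.28 (adjusted p = 0.0183 for both). No count of neighbouring pairs for unrelated genes was made, and the rows of neighbours were not checked for shared probes.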

How the data were processed

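The deposited log2 values were made by the authors with RMA and Partek (per the submitters' processing notes, without versions); the genome build is not given in the sources used here. Because RMA brings the arrays to a shared distribution, a global shift of expression would be hidden. Of 33297 rows, 19460 had 1 symbol in the platform annotation (updated by gene ID through RefSeq for 19429), 1754 several and 12083 none. A gene with several rows (769) was read from the row with the highest mean over the 4 miR-22 arrays.

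Induced and non-induced miR-22 arrays were compared with limma 3.58.1 in R 4.3.3 (lmFit, eBayes, 2 residual and 3.62 prior degrees of freedom, two-sided, Benjamini-Hochberg over all rows, threshold 0.05). Adjusted p-values in the text come from limma. Members, families and lists were chosen with earlier results of these data known. Named genes were, in each direction, ranks 13 to 24 by size, the 5 smallest and 5 brightest calls, up to 4 called members of each family in each direction (otherwise 2 with the largest difference), their paralogs and 4 markers. SIRT1, SP1, MAX, HDAC4, CDK6, TET2 and the genes of the neighbouring pairs outside that rule were chosen after their values were seen. The series calls the replicates biological; p-values measure the spread between 2 arrays in a group. Same-numbered replicates were checked for pairing. Over all rows, replicate 1 minus replicate 2 in induced cells correlated at 0.196 with the same difference in non-induced cells. Alternatives were other control arrays, scalings, filters, priors, a replicate block and leaving out each array.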

Additional observations from a re-analysis of the deposited data

How the results depend on the processing

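In the main comparison 1200 rows passed, with 320 genes higher and 280 lower. With any 1 of the 4 arrays left out, the counts of rows, higher genes and lower genes ranged from 0 to 0, since limma then has 1 residual degree of freedom and the lone array is assumed to vary like the other group. Counts rose to 7463 rows, 2164 higher and 1887 lower genes with the 3 arrays of prefix R587 as controls (578 of the 600 calls kept), to 4576 rows, 1433 and 1161 with all 4 other arrays as controls (577 kept), and to 2671 rows, 887 and 701 with the brighter 50% of rows (534 of 534 calls tested kept). The fit with the replicate block called 2955 rows, 836 higher and 631 lower genes and kept all 600 calls; the labels do not say that the numbers pair the cultures. Cyclic loess (366 and 346), quantile normalization applied again (389 and 319), an intensity trend (355 and 293), a robust prior (384 and 312), centring (449 and 229) and averaging a gene's rows (286 and 257) moved the counts within 1.5 times. None of the 600 calls turned its sign under any of these alternatives. For all 320 higher and 280 lower genes the induced and non-induced miR-22 arrays did not overlap. Leaving out an array, or changing the filter, prior, trend or block, therefore could not turn a sign, and for those settings the outcome was fixed in advance. Among genes named in the text, the calls that ended with centring were those of ARHGAP11A, ARMC9, CANX, INTS10, ITGA4, KIF2C, MERTK, NEB, PLCB3, RARG, SMC3, TEAD4, VEGFC and WRNIP1. With quantile normalization applied again, COX6B1, MERTK, PLCB3, RPL28, RPL31, RPS19 and TEAD4 lost theirs, and with cyclic loess COX6B1, JAG1, RPL28 and RPL31; the cause was not tested. MYH3 was not called with all 4 other arrays as controls. The array code prefix as a random block could not be fitted. Signal over background is not known for the deposited values.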
